A study of Mus musculus with 2 samples.

Results

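The cartilage matrix genes Matn1, Matn3, Matn4, Acan, Comp, Cnmd, Hapln1 and Chad were examined together with Sox5 and Sox6 in whole mouse lung with and without TAZ. Members were all probe sets that the platform annotation assigned to exactly 1 of these 10 genes, with older symbols included, which gave 23 of 45037 non-control probe sets and all 10 of the listed genes, out of 18193 genes named this way. The gene Wwtr1 encodes TAZ, a coactivator of TEAD transcription factors that the Hippo kinases restrain. One pool of TAZ-deficient lung and one pool of lung of their wild type littermates, both from E15.5 embryos, were each hybridised to 1 one-colour Affymetrix array, and each pool held 4 total RNA samples. The sources used here give neither the way the deficiency was made nor the strain or sex of the embryos. With 1 array per group there was no spread between replicates, so that no difference below has a test, a standard deviation between embryos or a p-value.

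Hyaline cartilage forms the rings and plates that hold the trachea and large bronchi open, and its chondrocytes differentiate from airway mesenchyme under the transcription factor SOX9. SOX5 and SOX6 are SoxD proteins that bind DNA but lack a transactivation domain of their own, and they act with SOX9 on chondrocyte genes such as Col2a1 and Acan. The matrix itself is a collagen II, IX and XI fibril network filled with aggrecan, which is anchored to hyaluronan by link protein, while matrilins, COMP and chondroadherin bridge fibrils, proteoglycans and cells.

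Signals are the deposited intensity units. The median non-control value, 15.2 units, served as a floor to which lower values were raised, and ratios are TAZ-deficient over wild type on the log2 scale. Each gene was read from the probe set with its highest mean signal and counted as measured if that signal exceeded the floor in at least 1 pool, as for 12032 genes. Genes that differed 1.5-fold or more were counted, a gene with 1 signal under the floor by its lower bound. Signals ran to 5541.4 on the TAZ-deficient array and to 5348.1 on the wild type array, with medians of 15.1 and 15.2. Wwtr1 followed the labels of the arrays at all 3 of its probe sets, the one with the highest mean signal reading 11.3 in the TAZ-deficient pool and 791.2 in the wild type pool. Lung epithelial genes were present in both pools, with Sftpc, encoding surfactant protein C, at 4121.5 in TAZ-deficient and 4142.5 in wild type lung and Nkx2-1, a lung epithelial transcription factor, at 60.6 and 61.1 in the same pools.

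Of the 10 genes, 6 were measured and 4, Matn1, Acan, Comp and Chad, had no probe set above the floor in either pool. Over the 8 member probe sets below the floor on both arrays, 4 of which belonged to Sox5, signals ran from 1.1 to 15.1 in TAZ-deficient lung and from 0.6 to 11.4 in wild type lung. The other 15 probe sets belonged to 6 genes, Matn3, Matn4, Hapln1, Cnmd, Sox5 and Sox6, and 14 of them were above the floor on both arrays. Several of the measured genes, among them Matn4, Hapln1, Sox5 and Sox6, are also expressed outside cartilage. RNA of whole lung cannot tell apart fewer cells of a type and less RNA per cell.

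**Figure D1:**
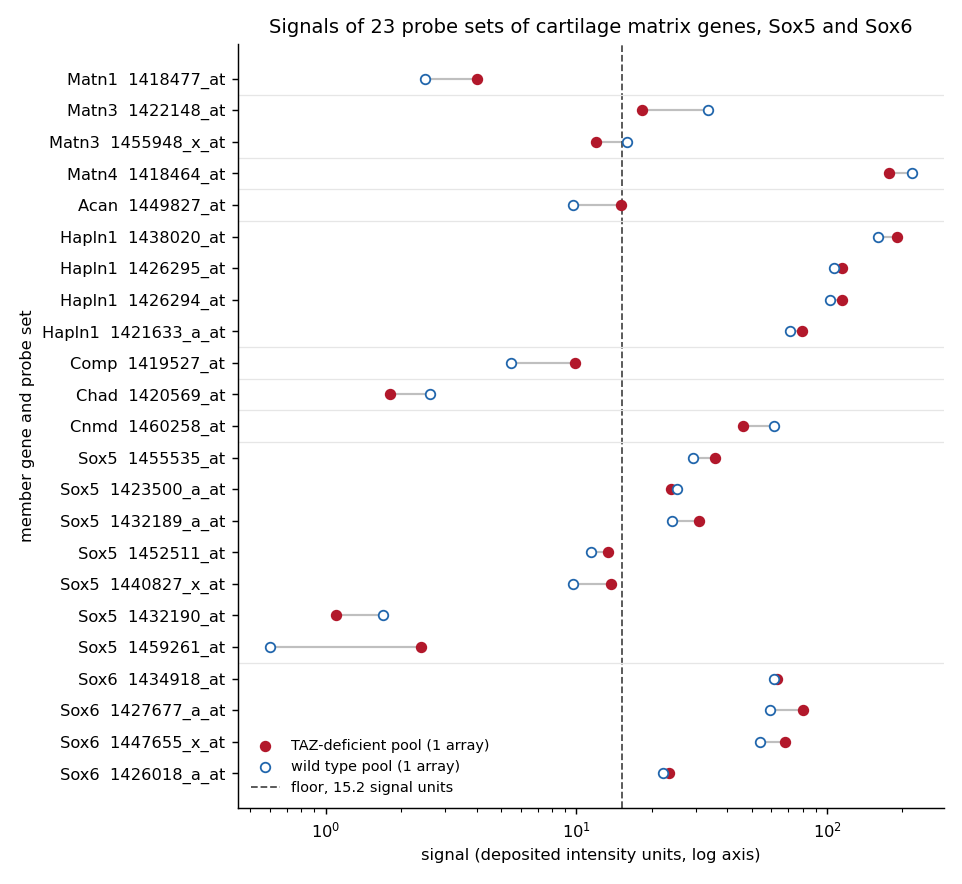
Signal of each of the 23 member probe sets (rows) on a log axis in deposited intensity units, with the TAZ-deficient pool as filled points, the wild type pool as open points and the floor of 15.2 as a dashed line. The single probe sets of Matn1, Acan, Comp and Chad lie below the floor in both pools, and all 4 Hapln1 probe sets lie to the right in the TAZ-deficient pool.

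Of the 6 measured genes, 1 was at least 1.5-fold lower in TAZ-deficient lung and 0 were at least 1.5-fold higher. Across all measured genes 1.46% were at least 1.5-fold lower and 1.26% at least 1.5-fold higher. Ratios were below 0 for 3 members and above 0 for 3. The median log2 ratio of the 6 genes was -0.03, beside -0.01 over all measured genes. Under quantile normalization Acan was also above the floor, on 1 array. The median of the 7 members then measured was 0.0048, the ratio of Acan itself. The 2 measured matrilins and Cnmd had ratios below 0, and Hapln1, Sox5 and Sox6 had ratios above 0, under each of the 8 alternative settings in which they were measured as well. These settings reuse the same 2 arrays, and a floor or added units cannot reverse a sign.

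Matn3 was the member at least 1.5-fold different. It encodes matrilin-3, an oligomeric von Willebrand factor A domain protein of growing cartilage that forms filaments with matrilin-1 and binds collagen fibrils. Its probe set 1422148_at read 18.3 in the TAZ-deficient pool and 33.5 in the wild type pool, a log2 ratio of -0.87 or 1.83-fold lower. Its other probe set, 1455948_x_at, read 12 in TAZ-deficient and 16 in wild type lung, so that its fold is a lower bound of 1.05. Both probe sets were lower in TAZ-deficient lung, but only the first by 1.5-fold, and the suffix of the second marks probes that can match other transcripts. Only 24 of the 12032 measured genes had a lower ratio than Matn3. Its signals lay near the floor, where large ratios were more common: among the 1705 genes with a mean signal under 30 units, 5.63% were at least 1.5-fold lower, and 1.47% had a difference larger in size than that of Matn3. With 16 units added to every signal in place of the floor Matn3 was 1.44-fold lower, under 1.5-fold. The median of its 2 probe sets was at least 1.39-fold lower, a lower bound because it includes the bound of the second probe set.

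Matn4 encodes matrilin-4, a matrilin of many connective tissues. Its 1 probe set read 176.6 in TAZ-deficient lung and 219.0 in wild type lung, a log2 ratio of -0.31 (1.24-fold lower). Of the 7107 genes with a mean signal over 100 units, 0.239% were at least 1.5-fold lower, and 5.18% had a difference larger in size than that of Matn4. Matn1, encoding matrilin-1, the cartilage matrix protein, read 4.0 in the TAZ-deficient pool and 2.5 in the wild type pool, both far below the floor, and no ratio was taken. Their paralogue Matn2, named after its values were seen, read 154.1 in TAZ-deficient and 114.6 in wild type lung (1.34-fold higher) at one probe set, and 113.1 and 120.1 in the same pools at the other. The measured members Matn3 and Matn4 thus had the same sign, while the probe sets of Matn2 disagreed in sign.

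The promoters of Matn3, the member with the largest difference, and of Hapln1 and Sox6, members with ratios above 0 at every measured probe set, are shown from RefSeq on GRCm38.p6, 250 bases before to 50 after the start, 5′ to 3′. Capitals mark CATTCC, the core letters bound by the TEAD partners of TAZ, and ACAAAG or ACAATG, core letters bound by SOX proteins, each searched on both strands with no overlap between the 2 kinds in the sequences shown.
Matn3, chr12:8947679-8947978 (+): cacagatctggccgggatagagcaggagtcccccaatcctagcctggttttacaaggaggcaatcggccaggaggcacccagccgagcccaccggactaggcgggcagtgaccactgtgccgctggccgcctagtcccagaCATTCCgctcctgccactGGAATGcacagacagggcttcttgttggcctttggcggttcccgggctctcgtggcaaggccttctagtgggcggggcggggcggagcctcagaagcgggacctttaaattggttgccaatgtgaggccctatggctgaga
Hapln1, chr13:89540386-89540685 (+): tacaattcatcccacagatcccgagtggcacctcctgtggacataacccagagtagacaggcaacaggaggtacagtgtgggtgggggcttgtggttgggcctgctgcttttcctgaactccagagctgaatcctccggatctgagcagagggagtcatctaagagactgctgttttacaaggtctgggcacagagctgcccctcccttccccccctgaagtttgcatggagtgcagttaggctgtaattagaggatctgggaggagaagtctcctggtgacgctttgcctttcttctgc
Sox6, chr7:116038695-116038994 (-): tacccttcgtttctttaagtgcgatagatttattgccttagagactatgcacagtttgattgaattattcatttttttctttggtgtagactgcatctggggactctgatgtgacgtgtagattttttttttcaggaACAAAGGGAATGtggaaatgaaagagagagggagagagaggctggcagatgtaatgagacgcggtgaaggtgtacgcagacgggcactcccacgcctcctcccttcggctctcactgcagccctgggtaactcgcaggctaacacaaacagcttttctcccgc
The Matn3 promoter held the TEAD letters at 2 places, which start 109 and 91 bases before the gene's start and lie on opposite strands, and no SOX letters. The listed Sox6 promoter, 1 of 6 for that gene, held the SOX letters 113 bases before the start and the TEAD letters directly after them, at 107 bases. Neither set of letters was in the Hapln1 window. The Sox5 promoter, not shown, also held the TEAD letters at 2 places, 102 and 9 bases before the start. Sox5 had a ratio above 0. The Acan promoter and a Matn4 promoter held the TEAD letters at 1 place each. Among 32851 promoters of this length 14.7% held the TEAD letters at least once and 1.36% at 2 or more places, and 28.6% held the SOX letters. The 9 members in the table had 15 promoters, of which 6 held the TEAD letters, in 5 genes, and 6 the SOX letters, in 2 genes. Of the 15, 6 belong to Sox6 alone, on which the SOX count mostly rests. These matches describe letters in a window and no binding was measured.

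Hapln1 encodes link protein, which locks aggrecan onto hyaluronan and also stabilises versican in soft tissues. All 4 of its probe sets were above the floor and all were higher in TAZ-deficient lung. Probe set 1438020_at read 190.5 in the TAZ-deficient pool and 159.8 in the wild type pool, 1.19-fold higher. Probe sets 1426294_at and 1426295_at read 115.0 and 114.9 in TAZ-deficient lung, against 103.2 and 107.1 in wild type lung. The fourth, 1421633_a_at, read 79.8 in TAZ-deficient lung and 71.5 in wild type lung. The log2 ratios of the 4 averaged 0.17 ± 0.06 (SD over 4 probe sets of 1 pair of arrays, with no replicate of the pools). Among the 3 members with 3 or more measured probe sets these ratios were the most even, although small in size. Of the genes with a mean signal over 100 units, 0.295% were at least 1.5-fold higher, and 9.24% had a difference larger in size than that of 1438020_at. Acan, encoding aggrecan, the large chondroitin sulphate proteoglycan that gives cartilage its stiffness, read 15.1 in TAZ-deficient and 9.7 in wild type lung at its 1 probe set, both under the floor.

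Comp encodes a pentameric thrombospondin that binds collagens, and Chad encodes chondroadherin, a leucine-rich protein that binds chondrocyte integrins. Comp read 9.9 in the TAZ-deficient pool and 5.5 in the wild type pool. Chad read 1.8 in TAZ-deficient and 2.6 in wild type lung. Neither gene was measured in either pool, and the number of arrays and the background limit what these values can show.

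Cnmd encodes chondromodulin, a transmembrane precursor of a secreted glycoprotein that keeps cartilage free of vessels. Its 1 probe set read 46.4 in TAZ-deficient lung and 61.3 in wild type lung, a log2 ratio of -0.40 (1.32-fold lower). Among the 3220 genes with a mean signal of 30 to 100 units, 1.96% were at least 1.5-fold lower and 11.2% had a difference larger in size than that of Cnmd. No second probe set was there to compare it with. Its paralogue Tnmd, encoding the tendon protein tenomodulin, was below the floor in both pools (12.8 in TAZ-deficient, 10.3 in wild type).

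Sox6 had 4 probe sets above the floor, all with a higher signal in TAZ-deficient lung but by unequal amounts. Probe set 1427677_a_at read 80.0 in the TAZ-deficient pool and 59.1 in the wild type pool, 1.35-fold higher. Probe set 1447655_x_at read 67.9 in TAZ-deficient and 53.8 in wild type lung. The remaining probe sets hardly differed between the pools, with 62.9 in TAZ-deficient and 61.6 in wild type lung for 1434918_at, and 23.4 and 22.1 in the same pools for 1426018_a_at. The 4 log2 ratios ran from 0.03 to 0.44 and averaged 0.22 ± 0.20 (SD over 4 probe sets of 1 pair of arrays). Of the 3220 genes with a mean signal of 30 to 100 units, 1.74% were at least 1.5-fold higher, and 8.73% had a difference larger in size than that of 1427677_a_at. The sole Sox6 probe set with the plain _at suffix, 1434918_at, was the one with the ratio of 0.03.

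Sox5, encoding the closest relative of SOX6, had 7 probe sets, of which 3 were above the floor. Probe set 1455535_at read 35.9 in TAZ-deficient lung and 29.2 in wild type lung, 1.23-fold higher. Probe set 1432189_a_at read 30.8 in TAZ-deficient and 24.1 in wild type lung, and 1423500_a_at read 23.9 and 25.3 in the same pools. Of the 3 ratios, 2 were thus above 0 and 1 below, with a mean of 0.19 ± 0.24 (SD over 3 probe sets of 1 pair of arrays), a spread larger than the mean. The third SoxD gene, Sox13, named after its values were seen, read 51.0 in TAZ-deficient lung and 62.3 in wild type lung (1.22-fold lower).

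**Figure D2:**
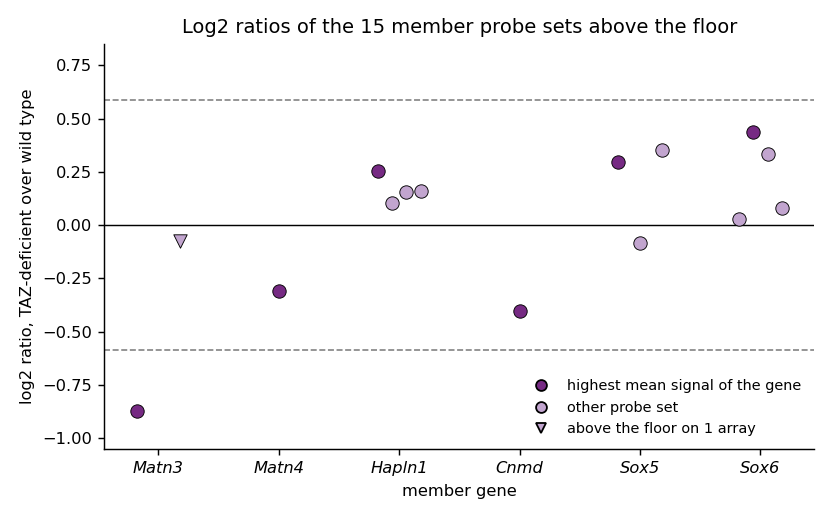
Log2 ratio (TAZ-deficient over wild type) for the 15 member probe sets above the floor on at least 1 array, by gene; dark points are the probe set with the highest mean signal of each gene, the triangle is above the floor on 1 array, and dashed lines mark 1.5-fold. One Matn3 probe set, at -0.87, lies beyond 1.5-fold, the 4 Hapln1 points lie close together and the Sox5 and Sox6 points are spread.

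How far probe sets of the same gene disagree gives a scale for these ratios, although it holds no variation between embryos, pools or arrays. Over 2677 genes whose second probe set was above the floor on both arrays with a mean signal up to 100 units, the ratios of the first and second probe set disagreed by 0.23 (the SD of their difference scaled to 1 probe set), and over 2524 genes with more signal by 0.13. By that scale the ratio of Matn3 (-0.87) and those of Cnmd (-0.40) and Sox6 (0.44) exceeded 0.23, as did the ratio of Sox5 (0.30), and the ratios of Matn4 (-0.31) and Hapln1 (0.25) exceeded 0.13. These are the probe sets with the highest mean signal, and the means over the measured probe sets of Sox6 (0.22) and Sox5 (0.19) were under 0.23. Each scale is 1 SD, which ratios of unchanged genes can exceed too. Matn3, Matn4 and Cnmd had no second probe set above the floor on both arrays, so that for them the scale comes from other genes. Matn3 also had a mean signal under 30 units, where ratios spread more. Of 29 genes that were at least 1.5-fold lower and had 2 probe sets above the floor on both arrays, 22 had the same sign at the second. Of the 29, 1 was 1.5-fold lower there too. Genes under the floor in 1 pool were left out of these 29, such as Wwtr1, at least 11.6-fold lower at all 3 probe sets. Matn3 was not among them either. Within that set of genes, a probe set past 1.5-fold was thus seldom matched by a second one.

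**Figure D3:**
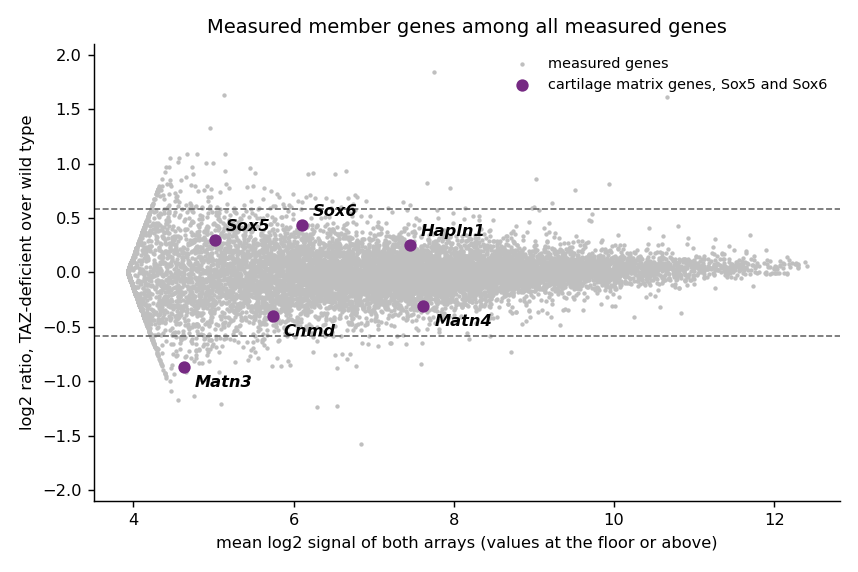
Log2 ratio (TAZ-deficient over wild type) against the mean log2 signal of both arrays (values under the floor set to it), with measured genes in grey, the 6 measured members labelled and 1.5-fold as dashed lines; 4 genes beyond 2.1 on the log2 scale are not drawn. Matn3 sits at the low-signal end, where ratios spread most, and the other 5 members lie within 1.5-fold.

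Of the chondrocyte collagens, 6 of 8 were measured and 0 were 1.5-fold different in either direction, with a median log2 ratio of 0.08. The count rests on the floor for Col9a2, a collagen IX chain that read 7.2 in TAZ-deficient and 19.4 in wild type lung and was at least 1.28-fold lower, and 1 collagen was at least 1.5-fold lower with 16 units added or with a lower floor, the 25th percentile. Col9a1, another collagen IX chain, read 209.2 in TAZ-deficient and 197.6 in wild type lung, and Col27a1, a fibrillar collagen, read 135.4 in TAZ-deficient and 172.1 in wild type lung, with the opposite sign at its second probe set (67.5 and 37.0 in the same pools). Col2a1, the main cartilage collagen, named after its values were seen, read 51.0 in TAZ-deficient lung and 41.2 in wild type lung (1.24-fold higher). Col11a2 and Col10a1, the latter of hypertrophic cartilage, were below the floor in both pools. Of the other chondrocyte genes, 10 of 18 were measured and 0 were 1.5-fold different, with a median of -0.05. The 7 below the floor in both pools were Snorc, Ucma, Prg4, Scrg1, Ihh, Nkx3-2 and Runx3. In that list Mia, a small secreted cartilage protein, read 713.8 in TAZ-deficient and 733.0 in wild type lung, and Pth1r, the parathyroid hormone-related protein receptor, read 348.1 and 352.5 in the same pools. Which cells of the lung gave these signals was not tested, and the cartilage genes Acan and Matn1 were below the floor in both pools. Sox9, the partner of the SoxD proteins, also named after its values were seen, read 155.7 in TAZ-deficient and 132.2 in wild type lung (1.18-fold higher) and 132.3 and 128.0 in the same pools at its second measured probe set.

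Genes that make, modify or resemble the members' products are described next. Over all measured genes, 1.46% were at least 1.5-fold lower and 1.26% at least 1.5-fold higher. Of 8 measured paralogues of the members 0 were 1.5-fold different (median log2 ratio -0.06), and the brightest, Thbs1, a thrombospondin related to COMP, read 619.7 in TAZ-deficient and 562.4 in wild type lung. Vcan, encoding the aggrecan relative versican, read 309.6 in TAZ-deficient lung and 282.9 in wild type lung. Of 24 measured genes of chondroitin sulphate and hyaluronan synthesis, 2 were just over 1.5-fold lower and 0 higher, with a median of -0.01. The lower ones were Xylt2, a xylosyltransferase that starts the glycosaminoglycan chain (24.8 in TAZ-deficient, 37.3 in wild type), and Has3, a hyaluronan synthase (13.2 in TAZ-deficient, 22.9 in wild type, at least 1.51-fold lower); the count was 0 after median centring or loess. Of 9 measured proteases and inhibitors that act on aggrecan and matrilins 0 were 1.5-fold different (median -0.06), Adamts9 reading 369.4 in TAZ-deficient and 381.3 in wild type lung and the inhibitor Timp3 217.0 and 242.4 in the same pools. Of 8 measured small leucine-rich proteoglycans 0 were 1.5-fold different (median -0.01), Bgn, encoding biglycan, reading 1337.7 in TAZ-deficient and 1340.9 in wild type lung, and Fmod, encoding fibromodulin, 1257.6 and 1147.0 in the same pools.

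Among genes of neighbouring tissues, differences of 1.5-fold or more were found for muscle and red cells. The shares over all measured genes were 1.46% lower and 1.26% higher by that size. Of 5 measured bone and tendon genes 0 were 1.5-fold different (median -0.15), with Phex at 62.5 in TAZ-deficient and 69.4 in wild type lung and Mkx at 41.3 and 47.5 in the same pools. Bone genes Sp7 and Dmp1 were below the floor in both pools. Of 9 measured smooth muscle genes, 8 had ratios below 0 and 2 were at least 1.5-fold lower, Cnn1 (79.0 in TAZ-deficient, 118.6 in wild type) and Synpo2 (62.9 in TAZ-deficient, 97.2 in wild type), with a median of -0.36. The count was 1 under quantile normalization, median centring and loess, 0 with 16 units added and with a floor of 106.3 units (75th percentile), and 3 with one of 4.3 units (25th percentile). The summed signal of the 9 genes was 3924.3 in TAZ-deficient and 4281.3 in wild type lung, and Lmod1 was below the floor in both pools. Most of each sum was Acta2, which hardly differed (2701.5 in TAZ-deficient, 2749.2 in wild type). Myocd had a log2 ratio of 0.37, and -0.34 at its second probe set. Airway smooth muscle lies beside airway cartilage, and its part in the lower Matn3, Matn4 and Cnmd signals was not tested. Of 3 measured skeletal muscle genes 1 was at least 1.5-fold lower, Ckm (1.53-fold or more, 10.6 in TAZ-deficient, 23.3 in wild type), its other probe set having the opposite sign (19.6 and 10.1 in the same pools). The 3 embryonic globins Hbb-y, Hbb-bh1 and Hba-x, which are red cell genes, were between 3.05-fold and 3.60-fold higher in TAZ-deficient lung. Of these, Hbb-y is known to be silenced by SOX6 in mouse fetal erythroid cells. All 4 Sox6 probe sets also read higher in TAZ-deficient lung, by the amounts given above. These are whole lung signals, and a link between Sox6 and the globins was not tested.

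**Figure D4:**
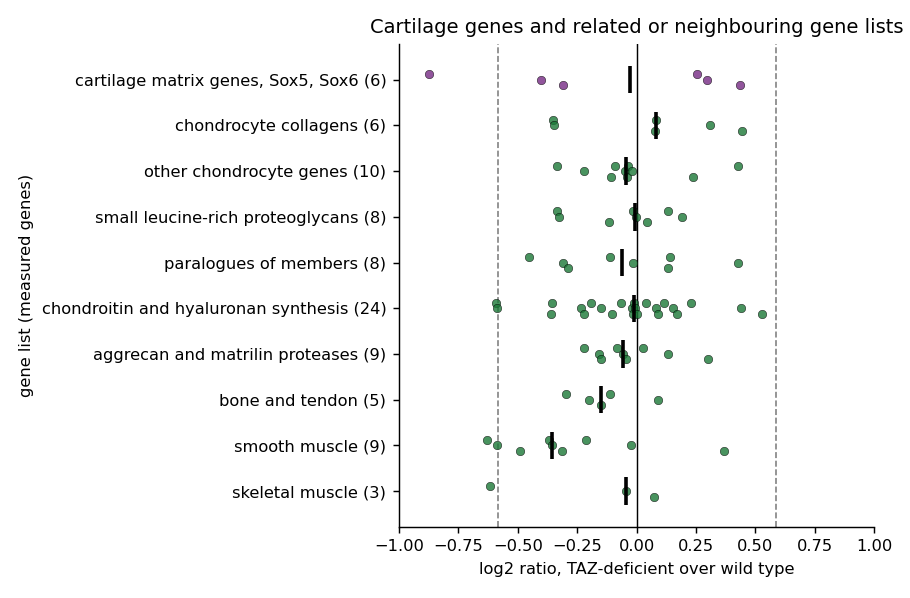
Log2 ratio (TAZ-deficient over wild type) for each measured gene (points) of the 10 cartilage matrix and SoxD genes and of 9 related or neighbouring lists, with the number measured in brackets, list medians as vertical bars and 1.5-fold as dashed lines; the embryonic globins are not drawn. The 6 measured members spread from -0.87 to 0.44 around a median of -0.03, and the smooth muscle list has the lowest median, -0.36.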

How the data were processed

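Total RNA of whole lung was pooled, labelled with biotin and hybridised to 1 array per group, per the labels' protocols and the series' design text. The submitters' processing notes name GCOS and MAS5, without role or version. The authors deposited linear intensity values with 1 decimal, and on each array their mean without the lowest and highest 2% was 100.001. No detection call, scanner file or scan date was used here, so that batch and group cannot be told apart.

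Of 45101 probe sets, 64 were controls. The platform annotation gave 1 gene to 34945, several to 932 and left 9160 of the non-control probe sets unlisted. Symbols were updated through the Entrez identifier for 34741. The probe set with the highest mean signal (log2) stood for its gene, and the floor, ratio and 1.5-fold count are as in the report (Python 3.11.15, pandas 2.3.3, statsmodels 0.14.6 for loess). The counting was tested on simulated data. The 10 gene lists (chondrocyte collagens, other chondrocyte genes, small leucine-rich proteoglycans, paralogues, chondroitin and hyaluronan synthesis, proteases, bone and tendon, smooth muscle, skeletal muscle, embryonic globins) had 119 entries, 3 genes standing in 2 lists. Every measured list gene at least 1.5-fold different was named, or otherwise the 2 with the highest signal. Other list genes, such as Acta2, Myocd and Col9a2, were named outside this rule with their values known. So were genes below the floor, such as Lmod1, Col10a1, Tnmd, Sp7 and Dmp1. The members, lists, thresholds and alternatives were chosen with earlier results of these data known. Promoters came from RefSeq (GRCm38.p6), for 9 of 10 members. Coordinates are given for promoters alone, on that build, since no build is named for the probes. Precision is limited by the number of arrays, and depth is not defined for them.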

Additional observations from a re-analysis of the deposited data

How the results depend on the processing

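Over 8 alternatives no measured member changed sign. They were floors at the 25th and 75th percentile, 16 units added in place of a floor, quantile normalization, median centring and loess. The others took the median over probe sets, or only the probe sets with the plain _at suffix. The alternatives reuse the same 2 arrays, so that a kept sign is no replication. A floor or added units cannot reverse which signal is larger, and Matn4 and Cnmd have 1 probe set each. Log2 ratios ran from -0.87 to -0.47 for Matn3, -0.31 to -0.28 for Matn4, -0.40 to -0.31 for Cnmd, 0.16 to 0.28 for Hapln1, 0.20 to 0.33 for Sox5 and 0.03 to 0.47 for Sox6. The count of members at least 1.5-fold lower was 0 in place of 1 with the floor at the 75th percentile (106.3 units, where only Matn4 and Hapln1 were measured), with 16 units added (Matn3 at -0.53) and with the median over probe sets (Matn3 at -0.47, a bound on the size since its second probe set was raised to the floor in TAZ-deficient lung). With the floor at the 25th percentile (4.3 units), 8 members were measured, 2 were at least 1.5-fold higher (Acan and Comp, 1.56-fold and 1.80-fold) and the median log2 ratio was 0.28. Under that floor, however, 1145 of 16117 measured genes were at least 1.5-fold lower and 836 higher, against 12 and 14 of 7085 with the 75th percentile. The sign of the members' median, -0.03, was not stable when further members were measured. Under quantile normalization Acan was above the floor on 1 array, and the median of the 7 members was 0.0048, the ratio of Acan itself. No paired analysis was possible because each group has 1 array, and for the same reason no replicate could be left out.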
